A study of Mus musculus with 12 samples.

Results

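The Toll-like receptors are membrane proteins that recognise molecules of microbes. The genes described here are those of 8 of these receptors (Tlr1, Tlr2, Tlr3, Tlr4, Tlr6, Tlr7, Tlr9 and Tlr13) and of a pair of proteins that work with TLR4 (Cd14 and Ly96). They were taken by gene symbol, each symbol stood on 1 gene identifier, and together they are 10 of the 55335 genes quantified. TLR4 binds LPS of Gram-negative bacteria at the cell surface together with MD-2, the product of Ly96, and CD14 hands LPS to this complex, whereas TLR2 pairs with TLR1 or TLR6 to recognise bacterial lipopeptides. TLR3, TLR7, TLR9 and TLR13 sit in endosomes and recognise RNA or DNA. In dendritic cells, binding of a ligand recruits the adaptors MyD88 or TRIF and leads to cytokine and interferon production.

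RNA was sequenced from mouse BMDCs, cells grown out of C57BL/6 bone marrow over 6 days with GM-CSF and selected on CD11c beads, to ask how loss of CTCF, a protein that shapes chromosome loops and domain boundaries, bears on gene expression at rest and after LPS. The study used male and female mice, 8 to 12 weeks old, and genes that mark sex, given below, showed female cells in all 12 libraries. WT cells carried Rosa26-CreER, a Cre recombinase that tamoxifen activates and that the Rosa26 locus expresses in most cell types, with intact Ctcf alleles, and came from littermates of the KO mice. KO cells carried Rosa26-CreER with loxP-flanked Ctcf (genotype CreER;CTCF fl/fl), and 4-OH tamoxifen was added to the culture on its first day only, per the labels. WTL and KOL were WT and KO cells given LPS from E. coli K12 at 100 ng/ml for 3 h. The study writes that the agent was added to delete Ctcf in KO cells "but not for WT cells". This wording does not state plainly whether WT cultures also received 4-OH tamoxifen, so the agent and the deletion cannot be told apart if they did not. The agent was given at the start of differentiation, and when the alleles were lost was not tested here. A role of CTCF during differentiation and a role in the finished cell therefore cannot be told apart either. Each group had 3 libraries, called biological triplicates in the series' design, with no word on whether each came from its own mouse. If they did not, the p-values measure the spread between cultures alone.

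Total expected counts were 12769773 to 16586334 per library. An expected count is RSEM's estimate of the reads of a gene, in which a read that matches several genes is divided among them. TPM is that count per length of transcript, scaled to the same sum in each library, and is used here to set genes against each other. Normalized counts, used to follow 1 gene across libraries, are rounded expected counts scaled by edgeR's TMM method to the mean effective library size. A gene was called higher or lower at an adjusted p under 0.05 in edgeR's quasi-likelihood test, adjusted by Benjamini-Hochberg over the 14008 genes with enough counts, and all 10 genes were among these. In sentences that give 3 values for a group, they are replicates 1, 2 and 3 in that order.

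Ctcf, the deleted gene, had normalized counts of 1051, 987 and 975 in WT, 886, 817 and 745 in WTL, 570, 562 and 516 in KO, and 563, 530 and 526 in KOL. Each KO or KOL library lay below each WT or WTL library, and the level in KO was lower than in WT by a log2 fold change of -0.87 (SE 0.08). The mean in KO was 54.7% of that in WT, and the counts are per gene and do not show whether the remaining reads came from the deleted exons. These counts therefore do not measure how much CTCF was left. The study reports depletion of CTCF RNA and protein in KO cells, and CTCF binding that was gone or much weaker in KO and KOL. Tlr7 and Tlr13 lie on the X chromosome, and all 12 libraries had the pattern of female cells in genes that mark sex. The expected count of Xist was 11660 to 27359, and the Y-linked genes Ddx3y, Uty and Eif2s3y were at 0 in 12 of 12 libraries.

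Certain libraries stood apart for these genes. WTL replicate 1 had the highest normalized count of its group for 10 of the 10 genes, where 39.6% of all genes tested were highest in that library. KOL replicate 2 was the highest of its group for 9 of the 10, the exception being Tlr1, against 40.9% of all genes tested. WTL replicate 3 was the lowest of its group for 9 of the 10, the exception being Cd14, against 32.9% of all genes tested. The median coefficient of variation of the 10 genes was 7.39% in WT and 2.95% in KO, compared with 14.0% in WTL and 15.9% in KOL. Over all genes tested, it was 6.67%, 5.59%, 12.5% and 12.7% in WT, KO, WTL and KOL. In WTL replicate 2, 5.17% of counts fell on ribosomal RNA genes, compared with 1.19% or less elsewhere, and each call of the 10 genes was the same without those genes.

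Per transcript length, the level of these genes in resting WT cells spanned from Cd14, at 194 ± 6.36 TPM (SD, n = 3), to Tlr3, at 2.15 ± 0.568 TPM. Tlr2, at 191 ± 6.79 TPM, overlapped Cd14. Below them in WT came Tlr13 at 60.5 ± 2.2, Ly96 at 42.2 ± 1.75 and Tlr7 at 30.4 ± 2.34 TPM, each apart from its neighbours in all 3 libraries. Tlr4, the LPS receptor, stood at 24.8 ± 2.71 TPM and overlapped Tlr6 at 19.3 ± 2.51 TPM, and Tlr9 (12.2 ± 0.918) and Tlr1 (7.51 ± 0.968 TPM) followed apart from each other. In WTL, Cd14 led at 515 ± 32 TPM, followed by Tlr2 at 245 ± 36.7 and Ly96 at 62 ± 9.26, and Tlr4 was last at 6.46 ± 2.41 TPM. From Tlr6 (19.2 TPM) through Tlr1 (18.8), Tlr9 (14.1) and Tlr3 (12.5) down to Tlr4, neighbouring genes in WTL overlapped. In KO, Tlr2 (119 ± 3.92 TPM) and Cd14 (115 ± 3.71) overlapped at the top, and Tlr1 was last at 0.27 ± 0.113 TPM, below Tlr3 at 3.85 ± 0.197. In KOL, Cd14 was again at the top at 536 ± 27.2 TPM and Tlr1 at the bottom at 1.5 ± 0.0569 TPM, with Tlr4 next to last at 5.25 ± 1.38 TPM.

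LPS raised most of these RNAs in WT cells. In WTL against WT, 8 of the 10 genes were higher, where 30% of all genes tested were, and 1 was lower (Tlr4), where 30.2% of all genes tested were; Tlr13 was not called. In KOL against KO, 7 were higher (33.6% of all genes) and 2, Tlr4 and Tlr13, were lower (33.9% of all genes), and Tlr9 was not called. In CTCF-deficient cells, most of them were lower. In KO against WT, 1 gene was higher (Tlr3; 22.2% of all genes) and 6 were lower (22.4% of all genes), with Tlr4, Tlr9 and Ly96 not called. In KOL against WTL, 7 were lower (23.3% of all genes) and 0 were higher (21.4% of all genes) in edgeR's test; 0 were higher at an unadjusted p under 0.05, and 0 by DESeq2 or limma. The median log2 fold change of the 10 genes was 0.84 in WTL against WT, -0.60 in KO against WT, -0.55 in KOL against WTL and 0.76 in KOL against KO, whereas the median of all genes tested lay between -0.03 and -0.01. The interaction, which is the log2 LPS response in KO minus that in WT, was called for 1 gene upward (Cd14; 8.7% of all genes) and 1 downward (Tlr9; 8.75% of all genes). The 4 comparisons share groups, so their counts are not independent of each other. Groups did not overlap in WTL against WT for 9 of the 10 genes (65.1% of all genes), in KO against WT for 9 (64.2%), in KOL against WTL for 7 (46.3%) and in KOL against KO for 9 (71.2%). In these bulk libraries, fewer cells that express a gene and less of its RNA per cell cannot be told apart.

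**Figure D1:**
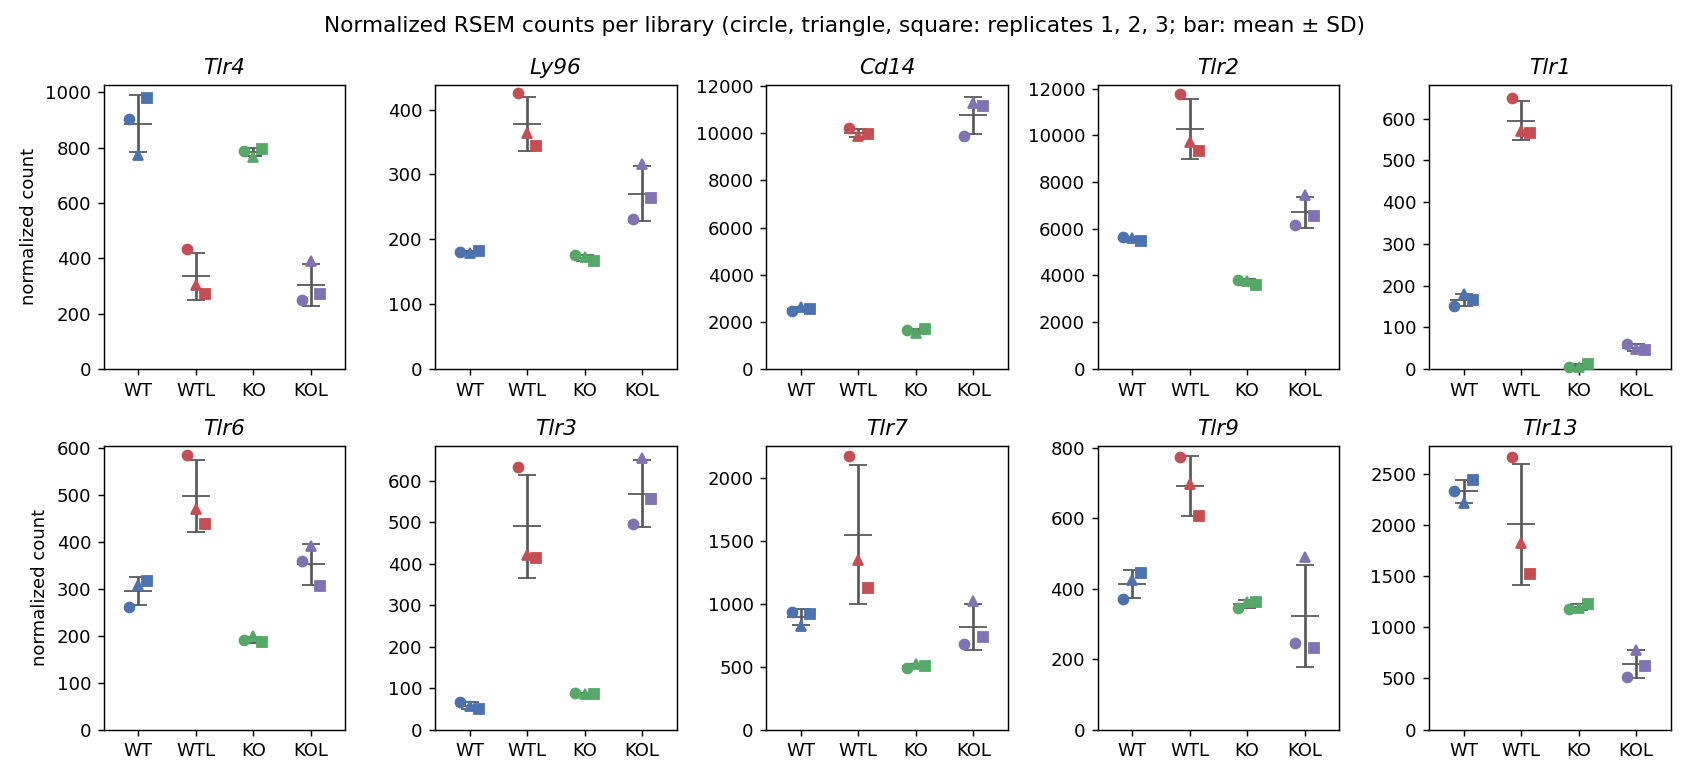
Normalized counts (vertical axes, linear, from 0) of the 10 genes in each of the 12 libraries, by group (WT, WTL, KO, KOL; symbols mark replicates 1, 2 and 3, and bars show the mean ± SD of 3). Tlr1 falls to 5.38 to 12 in KO from 152 to 179 in WT, and WTL replicate 1 is the highest WTL point in each panel.

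The scale of measurement matters for the smaller LPS responses. TPM holds the sum of each library fixed, and in limma on log2(TPM + 1) the median of all genes moved by -0.44 in WTL against WT and by -0.38 in KOL against KO. On that scale, 5 of the 10 genes were higher and 2 lower in WTL against WT. The rise of Tlr6 became -0.04, those of Tlr7 (0.34) and Tlr9 (0.19) no longer passed, and Tlr13 became lower (-0.80), whereas Tlr1, Tlr2, Tlr3, Cd14 and Ly96 were higher in WTL at an adjusted p under 0.05 in each fit that tested them by edgeR's quasi-likelihood test, DESeq2 or limma with Benjamini-Hochberg adjustment. Tlr1 was not tested at a minimum of 10 counts in every library, and Tlr2, at 0.88 on the log2 scale, did not reach the study's fold cutoff of 2. With TPM scaled to a common median instead, which brought the median of all genes to 0.02, Tlr6 was at 0.47 in WTL against WT and 0.57 in KOL against KO, neither called. In that fit of WTL against WT, Tlr7 (0.87) and Tlr9 (0.7) were called higher and Tlr13 (-0.27) was not called. In KOL against KO, log2(TPM + 1) gave 0.13 for Tlr6 and 0.19 for Ly96, both then not called, and -0.60 for Tlr9, which was. RSEM's effective length of Tlr6, an average over its transcripts, was 1471 bases in WT, 1780 in WTL, 1783 in KO and 2193 in KOL on average, so its TPM and its count did not move in parallel.

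Tlr4 (ENSMUSG00000039005.13, chr4:66827584-66930284 of mm10, plus strand) produces the protein that signals for LPS. Its normalized counts were 905, 775 and 978 in WT, 432, 303 and 271 in WTL, 789, 767 and 797 in KO, and 249, 390 and 272 in KOL. Each stimulated library lay below each unstimulated library, whichever the genotype, and WT overlapped KO as WTL overlapped KOL. After LPS, Tlr4 fell in WT by 1.41 on the log2 scale (SE 0.17, adjusted p = 4.4e-06 in edgeR's quasi-likelihood test, adjusted by Benjamini-Hochberg), lower in 3 of 3 libraries. In KO cells it fell by 1.37 (SE 0.17), and the interaction was 0.04 (95% interval -0.46 to 0.54). KO against WT gave -0.18 (95% interval -0.51 to 0.16) and KOL against WTL gave -0.14 (-0.51 to 0.24), neither called. The latter became 0.08 without WTL replicate 1. Fitted on the 6 unstimulated libraries alone, KO against WT was -0.17 and called. Tlr4 was the 1 gene of the 10 that was called lower after LPS in both genotypes.

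Ly96 (ENSMUSG00000025779.10, chr1:16688051-16709611 of mm10, plus strand) encodes MD-2, the part of the TLR4 complex that holds LPS. Its normalized counts were 181, 179 and 182 in WT, 425, 364 and 344 in WTL, 176, 172 and 167 in KO, and 231, 316 and 264 in KOL. The unstimulated values lay close together, each KO library just below each WT library, and each WTL library lay above each KOL library. Ly96 rose with LPS in WT by a log2 fold change of 1.06 (SE 0.11) and in KO by 0.65 (SE 0.11). At rest the genotypes did not differ by the test, with -0.07 in KO against WT (95% interval -0.32 to 0.18). After LPS the level in KOL was lower than in WTL by -0.48 (SE 0.11, adjusted p = 0.0023 in edgeR's quasi-likelihood test, adjusted by Benjamini-Hochberg), in 3 of 3 libraries. The difference between the LPS responses, -0.41 (95% interval -0.75 to -0.07), did not pass after adjustment over all genes, and without KOL replicate 2 it was -0.53 and passed.

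Cd14 (ENSMUSG00000051439.7) produces the protein that binds LPS and passes it to TLR4. Cd14 had normalized counts of 2462, 2640 and 2522 in WT, 10220, 9894 and 9953 in WTL, 1647, 1534 and 1678 in KO, and 9866, 11270 and 11168 in KOL. Each KO library lay below each WT library, each stimulated library lay far above both, and WTL and KOL overlapped. KO against WT gave a log2 fold change of -0.65 (SE 0.07), while KOL against WTL gave 0.10 (95% interval -0.04 to 0.25), which was not called. The rise with LPS was 1.98 (SE 0.07) in WT and 2.73 (SE 0.07) in KO. The difference between these responses, 0.75 (SE 0.10), passed with an adjusted p = 0.00013 in edgeR's quasi-likelihood test, adjusted by Benjamini-Hochberg. It was called with each library left out in turn (12 of 12, 0.72 to 0.85) and under 10 of 10 other settings. By the test, the genotypes differed in Cd14 before LPS but not after it.

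**Figure D2:**
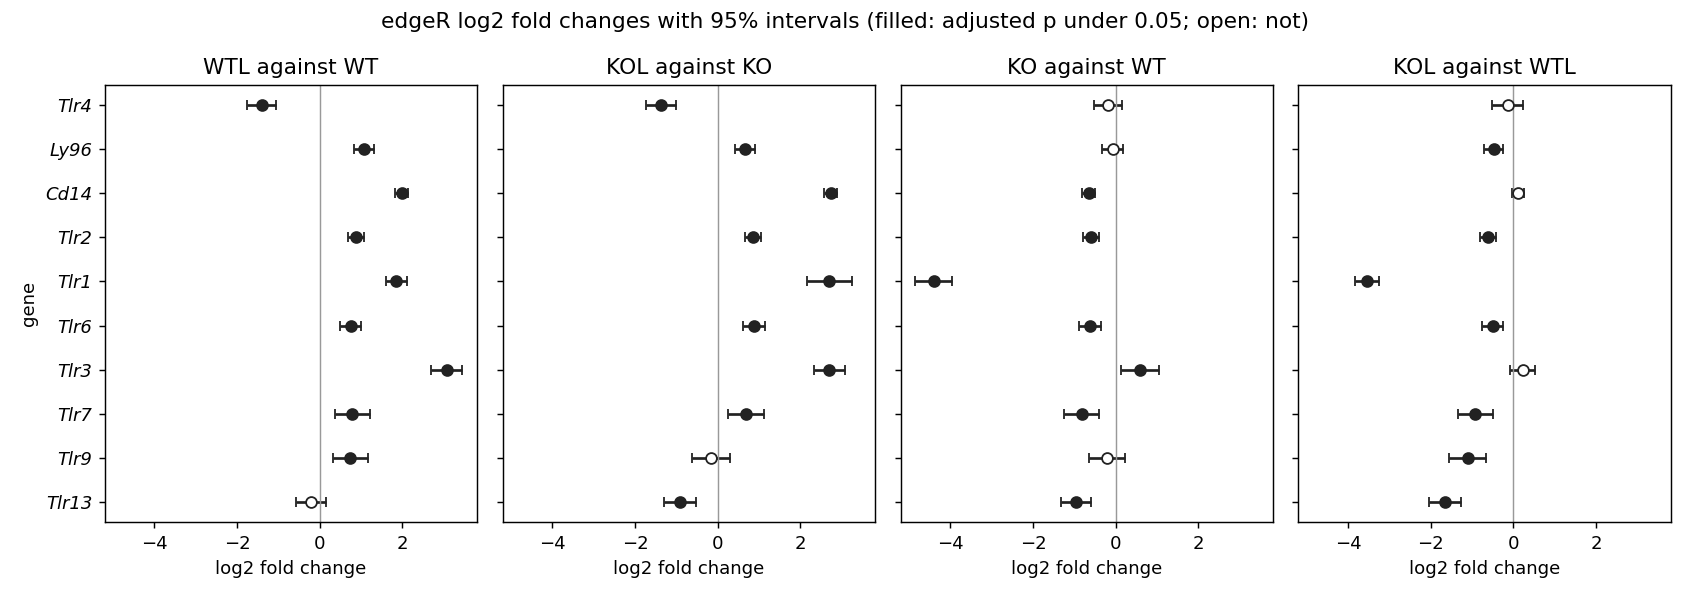
Log2 fold changes (horizontal axes) of the 10 genes in the 4 comparisons, with 95% intervals from edgeR's quasi-likelihood fit of 12 libraries; filled points were called and open points were not. Tlr1 lies at -4.40 in KO against WT and at -3.54 in KOL against WTL, and Tlr4 lies below 0 in both LPS comparisons and has intervals that include 0 in both genotype comparisons.

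Tlr2 (ENSMUSG00000027995.10, chr3:83836272-83841767 of mm10, minus strand) encodes the shared partner of the lipopeptide receptors. Its normalized counts were 5648, 5591 and 5469 in WT, 11745, 9725 and 9344 in WTL, 3797, 3760 and 3580 in KO, and 6138, 7434 and 6559 in KOL. No pair of groups overlapped, and the order was KO, WT, KOL, WTL from low to high. It rose with LPS by 0.88 (SE 0.09) on the log2 scale in WT and by 0.85 (SE 0.09) in KO, and the interaction was -0.03 (95% interval -0.30 to 0.24). KO was lower than WT by -0.59 (SE 0.09) and KOL lower than WTL by -0.61 (SE 0.09), and the adjusted p of the first of these was 0.0001 in edgeR's quasi-likelihood test, adjusted by Benjamini-Hochberg. The study drew its list of deregulated genes near lost STAT5 sites, which holds Tlr2, from these same libraries, so this fall is not independent evidence for that list.

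Tlr1 (ENSMUSG00000044827.10) encodes the partner of TLR2 for triacylated lipopeptides. Its normalized counts were 152, 179 and 165 in WT, 649, 571 and 567 in WTL, 5.38, 5.76 and 12 in KO, and 60.2, 48.0 and 44.8 in KOL. The expected counts in the KO libraries were 6.48, 6.3 and 12.5, and the highest KOL library lay below the lowest WT library. In KO against WT, Tlr1 fell by 4.40 on the log2 scale (SE 0.21, adjusted p = 6.2e-10 in edgeR's quasi-likelihood test, adjusted by Benjamini-Hochberg), lower in 3 of 3 libraries. Of the 14008 genes tested, 37 had a lower fold change. In KOL against WTL it fell by 3.54 (SE 0.14), and 37 genes again had a lower value. LPS raised Tlr1 by 1.84 (SE 0.12) in WT and by 2.70 (SE 0.25) in KO. The interaction of 0.86 (95% interval 0.22 to 1.5) did not pass after adjustment. It was 0.93 without WTL replicate 1 and 1.32 without KO replicate 3, and passed in both cases, as it did without the filter on low counts (0.87), while on log2(TPM + 1), which understates the change of a gene near 0, it was -0.22. The position of Tlr1 in the order of TPM was 9 of 10 in WT, 7 in WTL and 10 in both KO and KOL.

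Tlr6 (ENSMUSG00000051498.6) encodes the partner of TLR2 for diacylated lipopeptides. Tlr6 had normalized counts of 261, 308 and 317 in WT, 585, 471 and 439 in WTL, 190, 199 and 186 in KO, and 360, 392 and 305 in KOL. KO libraries were the lowest and WTL libraries the highest, and KOL replicate 3 lay within the range of WT. KO was lower than WT by -0.62 (SE 0.12) and KOL lower than WTL by -0.50 (SE 0.12) on the log2 scale. On counts, LPS raised Tlr6 by 0.75 (SE 0.12) in WT and by 0.88 (SE 0.12) in KO, but on log2(TPM + 1) the value in WT was -0.04. Tlr6 and Tlr2 moved together over the 12 libraries (Pearson r = 0.978 on log2 CPM, counts scaled to library size, the libraries of a group sharing their treatment).

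Tlr1 and Tlr6 are neighbours of similar sequence, and RSEM could divide reads between them. In mm10, Tlr1 spans chr5:64924679-64933563 and Tlr6 chr5:64952031-64960097, both on the minus strand and 18467 bases apart. Of all windows of 100 bases in their transcripts, 7.89% of those of Tlr1 and 7.09% of those of Tlr6 were shared exactly, and of windows of 50 bases 13.6% and 12.3%. Tlr1 held 34.3% to 36.8% of the summed expected count of the pair in WT, 52.6% to 56.4% in WTL, 2.96% to 5.85% in KO and 11% to 14.3% in KOL. The sum of the pair, which does not depend on the division, fell by 1.21 on the log2 scale (SE 0.11) in KO against WT and by 1.44 (SE 0.10) in KOL against WTL.

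The other genes tested around the pair were not lower in KO against WT. In a window of 250 kb on either side of the pair, 13 genes were listed and 8 tested. Fam114a1, on the plus strand 9973 bases beyond Tlr6, was singled out after its values were seen: it rose from 67.6 ± 8.66 normalized counts (SD, n = 3) in WT to 280 ± 16.9 in KO, a log2 fold change of 2.05 (SE 0.11), and was 2.15 (SE 0.11) higher in KOL than in WTL. Klf3, which encodes a transcriptional repressor and lies 91777 bases on the other side of Tlr1, also rose in KO, by 0.71 (SE 0.10). Tmem156 (0.01, SE 0.14), Klhl5 (-0.03, SE 0.07) and Wdr19 (-0.12, SE 0.16), farther beyond Fam114a1, were not called in KO against WT, but in KOL against WTL Tmem156 (0.59) and Klhl5 (0.67) were higher and Wdr19 (-0.69) lower. C230096K16Rik, within Klf3 on the same strand, rose from 5.51 ± 1.23 to 11.8 ± 1.67 normalized counts in KO against WT (1.07, SE 0.37), and its reads and those of Klf3 may not have been told apart. Whether CTCF bound near these genes was not tested.

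**Figure D3:**
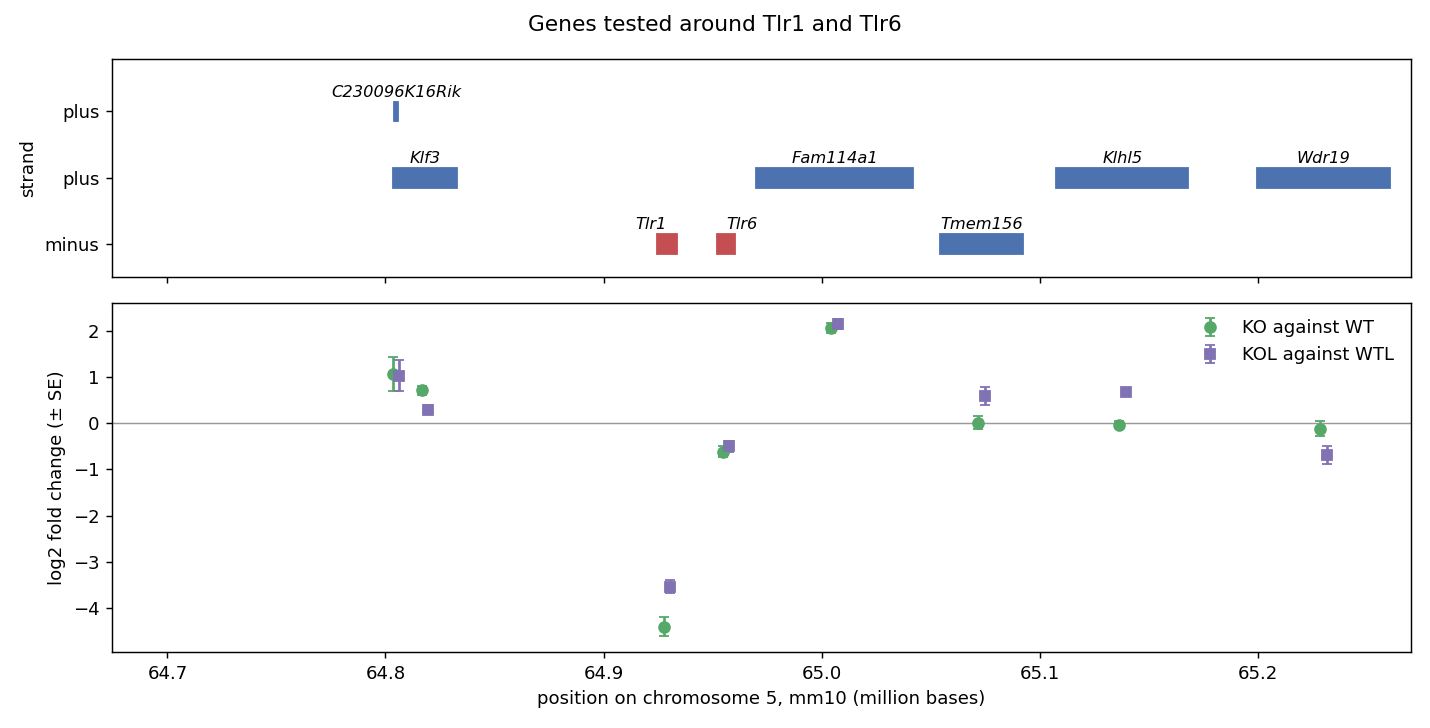
Genes tested around Tlr1 and Tlr6 on chromosome 5 of mm10, to scale by strand (upper panel; the upper plus line holds C230096K16Rik, which overlaps Klf3), with their log2 fold changes ± SE below. Tlr1 lies at -4.40 and Fam114a1 at 2.05 in KO against WT, and Tmem156, Klhl5 and Wdr19 lie near 0.

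The promoters of Tlr1 and its neighbour Tlr6, of their partner Tlr2 and of Tlr3, the 1 gene of the 10 higher in KO than in WT, are shown with the motifs found in them. RefSeq sequences on GRCm38.p6, the assembly of mm10, were matched for 6 of the 10 genes, and Tlr4, Tlr7, Cd14 and Ly96 are named only. Each runs from 250 bases before to 50 bases after a transcript start, and where a gene had several, the start nearest to the annotated gene start is printed. Both strands were searched for TTCNNNGAA (the form bound by STAT factors), GAAANNGAA (part of interferon-response elements), GAGGAA (a form bound by PU.1, a factor of myeloid cells) and the NF-kB consensus, and GAGGAA and GAAANNGAA can overlap each other. Of 32851 promoters of this length, 8.3% held TTCNNNGAA, 8.56% GAAANNGAA, 28.3% GAGGAA and 4.51% the NF-kB consensus. Capitals mark the matches, in Tlr1 (chr5:64933509-64933808, minus strand) 1 GAGGAA, and in Tlr6 (chr5:64959999-64960298, minus strand) 2 TTCNNNGAA, which begin at bases -3 and 8 counted from the start. A second start of each gene had other matches, 1 TTCNNNGAA for Tlr1 (chr5:64932650-64932949) and 2 GAAANNGAA for Tlr6 (chr5:64959117-64959416). In Tlr2 (chr3:83841559-83841858, minus strand) they mark 3 positions of the NF-kB consensus, a pair of which overlap, and in Tlr3 (chr8:45410331-45410630, minus strand), whose RefSeq start lies 700 bases inside the annotated gene, 1 position. Tlr9 held 2 GAGGAA and Tlr13 held 1. A match is a description of these letters alone.
Tlr1: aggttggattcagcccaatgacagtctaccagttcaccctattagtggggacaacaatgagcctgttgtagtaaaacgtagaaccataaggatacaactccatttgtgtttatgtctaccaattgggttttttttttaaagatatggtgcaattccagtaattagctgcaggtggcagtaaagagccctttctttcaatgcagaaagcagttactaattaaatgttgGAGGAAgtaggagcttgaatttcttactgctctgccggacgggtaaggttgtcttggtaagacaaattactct
Tlr6: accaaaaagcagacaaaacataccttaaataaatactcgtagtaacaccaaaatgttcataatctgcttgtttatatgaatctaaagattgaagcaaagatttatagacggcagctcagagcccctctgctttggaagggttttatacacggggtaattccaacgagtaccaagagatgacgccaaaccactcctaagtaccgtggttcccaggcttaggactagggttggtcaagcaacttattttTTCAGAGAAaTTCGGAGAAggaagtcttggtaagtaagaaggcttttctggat
Tlr2: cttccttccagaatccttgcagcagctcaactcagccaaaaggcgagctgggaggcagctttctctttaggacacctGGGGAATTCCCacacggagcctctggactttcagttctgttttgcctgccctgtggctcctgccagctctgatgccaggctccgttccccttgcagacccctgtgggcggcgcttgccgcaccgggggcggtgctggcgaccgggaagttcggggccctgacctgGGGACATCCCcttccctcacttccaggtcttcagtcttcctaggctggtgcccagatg
Tlr3: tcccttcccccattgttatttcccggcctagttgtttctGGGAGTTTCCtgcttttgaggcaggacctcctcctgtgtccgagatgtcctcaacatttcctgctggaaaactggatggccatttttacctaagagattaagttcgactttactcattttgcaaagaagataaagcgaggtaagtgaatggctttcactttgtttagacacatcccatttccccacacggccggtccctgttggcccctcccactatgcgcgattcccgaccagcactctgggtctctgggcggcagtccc

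Tlr3 (ENSMUSG00000031639.12, chr8:45395665-45411080 of mm10, minus strand) encodes the receptor for double-stranded RNA. The normalized counts of Tlr3 were 66.1, 57.9 and 50.1 in WT, 633, 422 and 414 in WTL, 88.8, 86.4 and 86.2 in KO, and 495, 654 and 556 in KOL. Stimulated libraries were all far above unstimulated ones, each KO library lay above each WT library, and WTL and KOL overlapped. It rose with LPS by 3.07 on the log2 scale in WT (SE 0.18, adjusted p = 2.2e-09 in edgeR's quasi-likelihood test, adjusted by Benjamini-Hochberg), in 3 of 3 libraries, and by 2.70 (SE 0.17) in KO. At these low resting counts, the rise in KO against WT, 0.59 (SE 0.21), no longer passed when any 1 of WT replicates 2 and 3 or of the 3 KO replicates was left out (0.46 to 0.65 over the 6 fits). After LPS, KOL against WTL gave 0.22 (95% interval -0.09 to 0.53), not called, and 0.44 without WTL replicate 1, which was. The antisense gene Gm45542 overlaps Tlr3, whether RSEM used the strand is not stated, and whether antisense reads were counted for Tlr3 was not tested. Gm45542 itself was given at most 2 expected counts in a library and was at 0 in 5 of 12 libraries.

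Tlr7 (ENSMUSG00000044583.13, chrX:167304929-167330558 of mm10, minus strand) encodes a receptor for single-stranded RNA. Tlr7 had normalized counts of 937, 823 and 920 in WT, 2171, 1349 and 1127 in WTL, 491, 522 and 506 in KO, and 680, 1024 and 739 in KOL. WTL replicate 1 stood far above the other WTL libraries, and KOL overlapped WT. KO was lower than WT by -0.82 (SE 0.20) and KOL lower than WTL by -0.93 (SE 0.20) on the log2 scale, the latter being -0.61 and called without WTL replicate 1. LPS raised Tlr7 by 0.79 (SE 0.19) in WT, which was 0.47 without WTL replicate 1, and by 0.68 (SE 0.20) in KO. The interaction was -0.11 (95% interval -0.71 to 0.49).

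Tlr9 (ENSMUSG00000045322.10, chr9:106222598-106226883 of mm10, plus strand) encodes the receptor for unmethylated CpG DNA. Tlr9 had normalized counts of 370, 426 and 445 in WT, 773, 697 and 605 in WTL, 345, 362 and 363 in KO, and 245, 489 and 233 in KOL. The WTL libraries lay above all others, while KOL held both the lowest values and, in replicate 2, a value above each WT and KO library. LPS raised Tlr9 in WT by 0.74 (SE 0.20), whereas KOL against KO gave -0.15 (95% interval -0.61 to 0.30), not called. The interaction was -0.89 (SE 0.29, adjusted p = 0.048 in edgeR's quasi-likelihood test, adjusted by Benjamini-Hochberg), and it was called in 2 of 12 fits with a library left out, those without WTL replicate 3 and without KOL replicate 2. Without KOL replicate 2, KOL against KO was -0.58 and called, and the interaction was -1.31. KOL was lower than WTL by -1.11 (SE 0.21) in 3 of 3 libraries, while KO against WT was -0.21 (95% interval -0.65 to 0.22) and was called, at -0.22, in a fit of those 6 libraries alone.

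Tlr13 (ENSMUSG00000033777.4, chrX:106143204-106160493 of mm10, plus strand) encodes a receptor for bacterial ribosomal RNA. The normalized counts of Tlr13 were 2329, 2212 and 2439 in WT, 2665, 1824 and 1524 in WTL, 1176, 1185 and 1228 in KO, and 510, 782 and 623 in KOL. The values stepped down from WT to KO to KOL without overlap, and WTL spanned the whole range of WT and more. KO was lower than WT by -0.96 (SE 0.17), and KOL was lower than WTL by -1.65 (SE 0.18, adjusted p = 3.5e-06 in edgeR's quasi-likelihood test, adjusted by Benjamini-Hochberg), in 3 of 3 libraries. In KO cells, Tlr13 fell with LPS by 0.91 (SE 0.18). In WT the LPS value was -0.22 (95% interval -0.58 to 0.14), not called, but it was -0.48 and called without WTL replicate 1, and -0.25 and called without the filter on low counts. The interaction, -0.69 (95% interval -1.21 to -0.17), did not pass after adjustment, but it did without WTL replicate 3 (-0.85) or KOL replicate 2 (-0.86), by DESeq2 (-0.68) and without the filter on low counts (-0.67). Without WTL replicate 1 it was -0.43 and not called.

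Of the other mouse receptor genes Tlr5, Tlr8, Tlr11 and Tlr12, 3 were tested, and Tlr5 had at most 8 expected counts. Tlr11, a receptor for profilin of protozoa, had 88.2, 73.0 and 78.7 normalized counts in WT, 13.5, 14.1 and 8.51 in WTL, 115, 140 and 149 in KO, and 6.45, 12.9 and 7.47 in KOL. Its groups did not overlap in either LPS comparison, and it fell with LPS by 2.73 (SE 0.24) in WT and by 3.91 (SE 0.24) in KO on the log2 scale, and rose in KO against WT by 0.75 (SE 0.17). Of the 3, Tlr11 and Tlr12 were lower in WTL against WT (30.2% of all genes), Tlr11 was higher and the other 2 not called in KO against WT (22.2% of all genes higher), the 3 were not called in KOL against WTL, and all 3 were lower in KOL against KO (33.9% of all genes). Tlr12 had few reads, with mean normalized counts of 18.6 in WT, 4.13 in WTL, 13.3 in KO and 5.42 in KOL. Its KO and KOL libraries overlapped. Tlr8, next to Tlr7 on the X chromosome, stood at 29.3 ± 3.49 TPM in WT, where it overlapped Tlr4 and Tlr7, and at 45.1 ± 0.716 TPM in KO, above Ly96. Its normalized counts were 688, 651 and 741 in WT, 806, 416 and 305 in WTL, 1072, 1055 and 1118 in KO, and 310, 683 and 318 in KOL. Each KO library lay above each WT library, but the log2 fold change of 0.64 (SE 0.29) did not pass after adjustment, and Tlr8 was lower in KOL than in KO by -1.31 (SE 0.30).

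Genes whose products fold, carry or cut these receptors were tested beside them. Of 7 genes for chaperones and transport, 6 were higher in KO against WT (22.2% of all genes) and 1 was lower (22.4% of all genes), and in WTL against WT 4 were lower (30.2% of all genes) and 3 not called. Lman1, a cargo receptor of the secretory pathway, had the largest rise in KO against WT (0.73) and Cnpy4 the fall (-0.47), and Rab7b, a regulator of endosomal traffic, had the largest fall with LPS (-1.73 in WT, -1.59 in KO). Unc93b1, which carries the endosomal receptors out of the endoplasmic reticulum, rose by 0.72 in KO against WT, and its LPS response was lower in KO by an interaction of -0.63. In KOL against KO, 6 of the 7 were lower (33.9% of all genes), and in KOL against WTL 3 were higher (21.4% of all genes), Cnpy3 most (0.49), and Cnpy4 was lower (-0.96; 23.3% of all genes). Of 5 genes for endosomal proteases that cut the receptors, 4 were higher in KO than in WT (22.2% of all genes), with Ctsl highest at 0.63, and 4 were higher in KOL than in WTL (21.4% of all genes), with Lgmn at 0.93. Ctsk, cathepsin K, was the 1 lower in both, at -2.24 and -2.35. With LPS, 3 of the 5 were higher in WT (30% of all genes) and 3 in KO (33.6% of all genes), Ctsl most in each (0.39 and 0.57), and Lgmn was lower in WT (-0.20; 30.2% of all genes).

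Of 9 genes for co-receptors and relatives, 4 were higher and 2 lower in WTL against WT, where 30% of all genes were higher and 30.2% lower. In KO against WT, 2 of the 9 were higher and 3 lower, where 22.2% and 22.4% of all genes were. Marco, a scavenger receptor, had the largest rise with LPS (2.00 in WT, 3.51 in KO) and the largest fall in KO against WT (-3.54) and in KOL against WTL (-2.03). Ly86, which encodes the MD-2 relative that binds CD180, rose by 1.31 in KO against WT, unlike Ly96. Clec7a, the receptor for beta-glucan, fell by 1.35 with LPS in WT and was higher in KOL than in WTL by 1.3. In KOL against WTL, 3 of these 9 were higher and 3 lower (21.4% and 23.3% of all genes), and in KOL against KO 5 were higher and 3 lower, Itgam most (-0.79), where 33.6% and 33.9% of all genes were. Of 11 tested genes of adaptors and proximal kinases, 3 were higher and 5 lower in KO against WT (22.2% and 22.4% of all genes), and 6 were lower (23.3% of all genes) and 5 not called in KOL against WTL, with Ticam2 at 0.56 and Myd88 at -0.58 in the former and Tirap at -0.99 in the latter. With LPS, 6 of them were higher and 2 lower in WT (30% and 30.2% of all genes), from Myd88 at 1.67 to Irak4 at -0.47, and 5 were higher and 3 lower in KO (33.6% and 33.9% of all genes), from Myd88 at 1.48 to Ticam2 at -1.03. Myd88, Irak2 and Cd36 are on the study's own list from these libraries, so their falls in KO against WT (-0.58, -0.51 and -0.67) are not independent evidence. After LPS, Cd36 was higher in KOL than in WTL, by 0.38. Of 9 inhibitors of receptor signalling, 1 was higher (Rnf216, 0.57) and 3 lower (Il1rl1 most, -1.85) in KO against WT (22.2% and 22.4% of all genes), and 1 was higher (Rnf216, 0.47) and 5 lower (Il1rl1 most, -1.15) in KOL against WTL (21.4% and 23.3% of all genes). With LPS, 3 were higher and 4 lower in WT (30% and 30.2% of all genes), with Socs1 at 4.30 and Inpp5d at -2.10, and 2 were higher and 3 lower in KO (33.6% and 33.9% of all genes), with Socs1 at 3.64 and Inpp5d at -2.32. Of 10 LPS response genes, 10 were higher with LPS in both genotypes (30% of all genes in WT and 33.6% in KO). They were listed as genes that respond to LPS, so this count follows from the choice of the list. Il6 rose most in WT (7.97) and, apart from Ifnb1, in KO (9.53). Ifnb1 went from 0 in each KO library to 118 ± 27 normalized counts in KOL, so it has no measured fold and was not ranked. In KO against WT, 7 of the 10 were lower (22.4% of all genes), among them Il6 (-2.54), Ptgs2 (-2.46), Il12b (-2.19) and Tnf (-1.83), and Il1b (1.29) and Ccl5, a chemokine gene (0.61), were higher (22.2% of all genes). The lower genes include Ifnb1 and Il10, each with at most 5 expected counts in a WT library. Il6 had only 5.56 to 16.1 normalized counts in KO, so its fold changes that involve KO rest on few reads. In KOL against WTL, 7 were lower (23.3% of all genes), Il10 most (-1.22), and Ccl5 was higher (0.25; 21.4% of all genes). By the interaction (8.7% of all genes higher, 8.75% lower), 2 chaperone and transport genes were lower, Unc93b1 most. Of the proteases Lgmn was higher (0.52), of the co-receptors 3 were higher, Marco most (1.51), and 2 lower, Itgam most (-0.70), and of the adaptors 4 were lower, Ticam2 most (-0.88). Of the LPS response genes 5 were higher, Il6 most (1.56) apart from Ifnb1, and 3 lower, Il1b most (-1.47). The size of the Ifnb1 interaction rests on KO libraries at 0 and was not ranked. Inhibitors and other receptor genes were not called.

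Marker genes of the cells that such cultures hold also moved between the groups, and their part in the results above was not tested. Sums of TPM also carry the lower median of TPM after LPS, so calls on counts are given beside them; of all genes tested, 22.2% were higher and 22.4% lower in KO against WT, 30% and 30.2% in WTL against WT, 21.4% and 23.3% in KOL against WTL, and 33.6% and 33.9% in KOL against KO. The 9 dendritic cell markers, Cd74 being the most abundant, summed to 10959 to 11518 TPM in WT, 10926 to 15020 in WTL, 7474 to 7778 in KO and 11306 to 16093 in KOL, with none at 0. In KO against WT, 1 of them was higher and 5 were lower, in WTL against WT 7 were higher and the other 2 not called, in KOL against WTL 3 were higher and 3 lower, and in KOL against KO 7 were higher and 1 lower. The 10 macrophage and monocyte markers summed to 1212 to 1286 TPM in WT, 669 to 805 in WTL, 1633 to 1702 in KO and 769 to 908 in KOL, led by Cd68, or by Csf1r in KO. Their calls were 5 higher and 3 lower in KO against WT, 2 higher and 3 lower in WTL against WT, where their median log2 fold change on counts was 0.16, 4 higher and 2 lower in KOL against WTL, and 4 higher and 3 lower in KOL against KO. The 10 neutrophil and granulocyte precursor markers, led by S100a8, summed to 383 to 408 TPM in WT, 351 to 445 in WTL, 208 to 239 in KO and 291 to 336 in KOL, and of 8 tested 2 were higher and 6 lower in KO against WT, 5 higher and 2 lower in WTL against WT, 5 lower and 3 not called in KOL against WTL, and 5 higher and 2 lower in KOL against KO, with Ly6g at 0 in KO replicates 1 and 3, Elane in KO replicates 1 and 2 and KOL replicates 1 and 3, and Camp in KO replicate 2. Of the plasmacytoid dendritic cell markers, Bst2, which many cells express, made up nearly the whole sum of 162 to 202 TPM in unstimulated and 515 to 688 TPM in stimulated libraries. The defining gene Siglech, at a mean of 0.107 TPM in WT, was at 0 in 3 of 3 KO libraries, and Klk1 at 0 in 11 of 12 libraries. Ccr9, of the same list, went the other way, from a mean of 0.537 TPM in WT to 2.89 TPM in KO, and was called higher by a log2 fold change of 2.38. The 5 markers of type 1 conventional dendritic cells summed to at most 16.1 TPM, the T and NK cell markers to at most 3.25, and the B cell and the mast cell and basophil markers to at most 1.16 TPM each.

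Over the 12 libraries, the genes whose log2 CPM values were most like those of Tlr4 were Fam111a (Pearson r = 0.994), Atp6v0d2 (0.992), Pcyox1 (0.989), Zfp146 (0.987) and Fech (0.985), which describes these libraries, most of all their split by LPS. Among the 10 genes themselves, Tlr4 was most unlike Tlr3 (r = -0.922) and most like Tlr13 (r = 0.532). Tlr3 was most like Cd14 (r = 0.938), Tlr1 most like Tlr7 (r = 0.894), Tlr7 and Ly96 most like Tlr2 (r = 0.934 and 0.935), Tlr9 most like Tlr7 (r = 0.776) and Tlr13 most like Tlr9 (r = 0.682).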

How the data were processed

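RNA-seq libraries of WT, WTL, KO and KOL BMDCs (3 each) were grouped by their labels. After trimming (Trim Galore), the authors used STAR for alignment to mm10 (version 2.5.1 in the submitters' processing notes and another in the study's reporting summary) and RSEM for quantification. They deposited an expected count, a TPM and an effective length per gene. The labels name ribosomal RNA depletion and the study's methods poly(A) selection with a stranded kit; RSEM's strand setting is not given in the sources used here. Expected counts were rounded, filtered by group with filterByExpr, normalized by TMM and tested with the quasi-likelihood test of edgeR 4.0.16 (R 4.3.3) in a single fit of 12 libraries with Benjamini-Hochberg adjustment and no fold cutoff. The scripts were tested on simulated data. Each SE was derived from that test, as the size of the log2 fold change divided by the square root of its F statistic. Intervals at 95% are approximate, the log2 fold change plus or minus a t quantile times this SE. They reflect uncertainty from the spread between libraries alone.

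Alternatives were DESeq2 1.42.0, its size factors, no count filter, a minimum of 10 counts in each library, the libraries of a comparison alone, a replicate block, removal of ribosomal RNA genes, limma 3.58.1 on log2 TPM with a pseudocount of 1 or 0.1 (TPM of 1 or more in 3 libraries, or unfiltered) and at a common median TPM, the study's fold cutoffs (2 for LPS, 1.3 for KO against WT, 1.5 for KOL against WTL), summing Tlr1 and Tlr6, and leaving out each library. The 10 genes and the lists were chosen with earlier results of these data known. Of each list, the largest rise and fall among called genes with at least 20 normalized counts are named. Ifnb1, at 0 in each KO library, was left out of this ranking in KOL against KO and in the interaction. Other named genes were picked after their values were seen. Tables were made with Python 3.11.15, pandas 2.3.3, numpy 2.4.6 and scipy 1.17.1, and plots with matplotlib 3.10.9.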

Additional observations from a re-analysis of the deposited data

Results flagged for a closer look

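The LPS response of Tlr9 and that of Cd14 differed between KO and WT by the test of the interaction. For Tlr9, the log2 response in KO minus that in WT was -0.89, with LPS values of 0.74 in WT and -0.15 in KO. With each library left out in turn it was -1.31 to -0.70, and it was called in 2 of 12 such fits and under 5 of 10 other settings. For Cd14, the difference was 0.75, with LPS values of 1.98 in WT and 2.73 in KO.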

How the results depend on the processing

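Of 905 recomputed log2 fold changes of the 10 genes, 820 kept their direction and their side of the threshold, 36 lost the call, 20 gained it and 29 changed sign, and for the values below the cause was not tested except where stated. In WTL against WT, 5 genes were higher and 2 lower with limma on log2(TPM + 1), on log2(TPM + 0.1) and without a filter, and 2 were lower in edgeR without the count filter. The study's fold cutoffs, which demand a larger change, left 4 higher in WTL against WT, 5 lower in KOL against WTL without Tlr6 and Ly96, and 3 higher and 1 lower in KOL against KO. In KO against WT, 0 genes were higher with limma without a filter. Called interactions were 2 upward without the count filter, 2 downward with DESeq2 or without the count filter, and 0 downward with DESeq2's size factors and in each limma fit. Tlr6 in WTL against WT became -0.04 on log2(TPM + 1) with or without the filter and -0.05 on log2(TPM + 0.1). Among interactions, Tlr1 became -0.22 on log2(TPM + 1) with or without the filter, -0.48 at a common median and -0.23 when summed with Tlr6, which gave Tlr6 that same -0.23. Tlr2 became 0.05 in the limma fits other than the common median, and Tlr7 became 0.12 on log2(TPM + 1) with or without the filter, 0.13 on log2(TPM + 0.1) and 0.05 at the common median.

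With each library left out in turn, 8 genes were higher and 1 to 2 lower in WTL against WT, 0 to 1 higher and 6 lower in KO against WT, 0 to 1 higher and 7 lower in KOL against WTL, 7 higher and 2 to 3 lower in KOL against KO, and 1 to 2 interactions were called upward and 0 to 3 downward. Fold changes that changed sign ranged from -0.35 to 0.08 for Tlr4 in KOL against WTL, from -0.58 to 0.04 for Tlr9 in KOL against KO, and for the interactions from -0.11 to 0.08 (Tlr2), -0.17 to 0.25 (Tlr4) and -0.30 to 0.21 (Tlr7).

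Pairing of libraries by replicate number was not seen: over 18 same-numbered pairs the correlation of deviations was -0.325 to 0.126, over 0.1 in 1. Deviations from a mean of 3 libraries cannot exclude a shared mouse or culture. With the replicate number as a block, 50 of 50 calls were the same, with 8 higher and 1 lower in WTL against WT and 1 higher and 6 lower in KO against WT. Tlr1 had no value at a minimum of 10 counts in every library, since 2 of its 3 KO libraries are lower. At this depth, a fold change of Tlr1 in KO rests on few reads.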
